A study of Mus musculus with 13 samples.

Results

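The homeobox genes of the Hox, Dlx and Msx families were followed in mammary tumors of mice that overexpress TSG101 and in mammary glands of wild-type mice. Members were all rows whose symbol is a Hox gene of cluster a, b, c or d with a number, Dlx1, Dlx2, Dlx4, Dlx5 or Dlx6, or Msx1 or Msx2, and this rule uses no measured value. It found 28 members among the 15213 genes of the table. These were 4 Hoxa, 6 Hoxb, 7 Hoxc, 5 Hoxd, 4 Dlx and 2 Msx genes, whereas the RefSeq annotation holds 46 genes of these names. The other 18 have no row and were not analysed here.

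The study sequenced total RNA of 10 tumors from 6 females that carry the MMTV-tTA and TetO-Tsg101 transgenes, labelled MtTA Teto-TSG101wt, and mammary gland tissue of 3 females labelled WT FVB. In the transgenic mice the MMTV promoter drives the tetracycline-controlled transactivator in the mammary epithelium in a mosaic manner, and the transactivator switches on wild-type Tsg101, a gene of the ESCRT sorting machinery. Both groups are of the FVB strain, the labels give no treatment for either, and the ages of the sequenced animals are not stated. Tumors 2 and 3 came from the same mouse, as did tumors 5 and 6 and tumors 8, 9 and 10, so that the 10 tumors are not 10 independent animals. The titles give the number of the gland for 7 of the tumors and for none of the wild-type glands, and the labels name 2 places of sequencing, the UNMC genomics core and Novogene, without saying which libraries came from which. Whether tumors and glands differ by place cannot be told, and its part in the results was not tested.

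Hox genes encode transcription factors that tell cells where along the head-to-tail axis they are. They lie in 4 clusters, and the order of the genes along each cluster, given by the paralog group number, follows the order in which they are used along the body, from anterior (groups 1 to 3) over central (4 to 8) to posterior (9 to 13). Adult fibroblasts and epithelia keep the Hox code of the place where they arose, and several Hox genes take part in mammary gland development. Dlx and Msx genes lie outside the clusters. They act downstream of BMP and FGF signals in skin appendages, teeth, limb buds and facial bones, Msx1 and Msx2 are used by the mammary bud, and Hoxc13 and Msx2 are regulators of the growing hair shaft.

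The promoters of a few members are shown to give the sequence around the start sites of genes that moved in opposite directions. RefSeq (GRCm38.p6) gave a promoter of 300 bases, from 250 bases before to 50 bases after the annotated start, for 15 of the 28 members. Dlx2 and Msx2 were higher in tumors, and Hoxd9 and Hoxd4 were lower. The sequences read 5′ to 3′ on the strand of the gene, and capitals mark CG dinucleotides. Dlx2 lies at chr2:71546705-71547004 on the minus strand, Msx2 at chr13:53472731-53473030 on the minus strand, Hoxd9 at chr2:74697513-74697812 on the plus strand and Hoxd4 at chr2:74721728-74722027 on the plus strand.
Dlx2: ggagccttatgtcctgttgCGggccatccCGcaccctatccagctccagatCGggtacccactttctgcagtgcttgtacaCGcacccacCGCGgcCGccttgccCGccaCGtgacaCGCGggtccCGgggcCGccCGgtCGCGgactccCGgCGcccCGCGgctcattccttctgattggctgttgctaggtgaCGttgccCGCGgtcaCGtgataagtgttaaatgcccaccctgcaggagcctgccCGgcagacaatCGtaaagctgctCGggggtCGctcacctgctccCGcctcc
Msx2: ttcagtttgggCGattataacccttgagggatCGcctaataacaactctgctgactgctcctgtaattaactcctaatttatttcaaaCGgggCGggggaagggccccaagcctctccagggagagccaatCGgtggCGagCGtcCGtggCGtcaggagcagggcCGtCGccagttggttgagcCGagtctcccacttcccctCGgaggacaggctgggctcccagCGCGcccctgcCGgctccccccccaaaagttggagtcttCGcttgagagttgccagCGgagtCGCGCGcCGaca
Hoxd9: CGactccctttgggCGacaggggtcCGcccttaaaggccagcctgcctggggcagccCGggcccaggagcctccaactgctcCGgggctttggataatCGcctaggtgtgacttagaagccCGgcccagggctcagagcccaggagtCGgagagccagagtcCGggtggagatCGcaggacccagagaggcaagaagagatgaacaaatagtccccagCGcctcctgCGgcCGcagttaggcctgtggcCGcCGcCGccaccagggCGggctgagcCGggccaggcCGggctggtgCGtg
Hoxd4: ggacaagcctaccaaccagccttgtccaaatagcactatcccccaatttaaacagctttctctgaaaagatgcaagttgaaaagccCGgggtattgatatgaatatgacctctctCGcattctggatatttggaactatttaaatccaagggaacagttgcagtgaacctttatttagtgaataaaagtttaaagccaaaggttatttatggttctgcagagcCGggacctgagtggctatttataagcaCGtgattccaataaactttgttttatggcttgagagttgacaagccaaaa
The Dlx2 window held 29 CG dinucleotides, the Msx2 window 22, the Hoxd9 window 20 and the Hoxd4 window 4. Over the 15 members the median was 20, with a range of 4 to 29, whereas the median over all 27025 promoters was 7. CG-rich and CG-poor promoters occurred among the members that were lower in tumors, since Hoxa5 had 29 and Hoxa9 had 4. On either strand, the homeodomain core TAATTA occurred in the Msx2 window alone of the 15 and in 5.31% of all promoters, TATAAA in the Hoxd4 window alone and in 14.2%, and CTTTGA, the core bound by LEF and TCF factors, in the Hoxd8 window alone and in 16.2%. The first listed promoter of each gene was used, and these motifs do not overlap in it.

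The levels given below are normalized cpm, which are cpm scaled once more for each library. Tumor libraries held between 6176269 and 16835397 reads and gland libraries between 11672487 and 23889042. A count of 3 reads, the limit that a count of 0 allows, was the floor of a library and corresponds to 0.141 to 0.683 normalized cpm in the tumors and 0.128 to 0.366 in the glands. It covers counting error only. The ribosomal gene Rn45s took 27.4% of the reads of tumor 9 and at most 9.32% of those of any other library. Tsg101 itself ranged from 49.9 to 101 in the tumors and from 45.6 to 61.0 in the glands, and 6 of 10 tumors were above all glands (log2 difference 0.30 ± 0.20 SE, adjusted p = 0.28 by limma). Epithelial markers were present in both groups, with 3 of 12 higher in tumors, and their sum lay between 2488 and 4796 in tumors and between 1448 and 3219 in glands. Other markers differed, with 8 of 8 adipocyte markers lower in tumors (sums of 85.9 to 480 against 3876 to 11261), 4 of 10 fibroblast markers lower and 1 higher (423 to 1256 against 3950 to 4482), 4 of 5 endothelial markers lower (39.5 to 101 against 172 to 496) and 9 of 10 squamous and hair follicle markers higher (406 to 3383 against 16.5 to 27.7). In bulk tissue, fewer cells of a type and less RNA per cell cannot be told apart.

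Of the 28 members, 6 were significantly higher and 13 significantly lower in tumors, and 9 did not pass (limma on log2 of normalized cpm + 1, FDR below 0.05 over all 15213 genes and a change of more than 2-fold). Across all genes, 10.5% were called higher and 10.1% lower. The direction split by family. Those that rose were Dlx1, Dlx2, Dlx5, Msx1, Msx2 and Hoxc13, and all 13 that fell were Hox genes. For each of the 6, the listed values of all 10 tumors lay above those of all 3 glands, which 11.4% of all genes do, although Hoxc13 in tumor 1 was under its floor, and for each of the 13 all 10 tumors lay below all 3 glands, which 10.3% do. The median log2 difference was 1.62 over the 6 Dlx and Msx genes and -1.33 over the 22 Hox genes, beside 0.01 over all genes. Members were weakly expressed. Only Hoxb2, Hoxb3 and Hoxc8 passed the limit of the study on low values, in which genes at 5 cpm or less in most of the libraries are left out, and 0 of these 3 was called by limma, edgeR or DESeq2 or had an unadjusted p below 0.05. Among the 11795 genes past that limit, 10.2% were called higher and 6.99% lower. The limit can be met by the tumors alone but not by the glands alone, so that a gene found in glands only cannot pass it.

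The 3 Dlx genes that rose were at or under the floor in every gland. Dlx1, Dlx2 and Dlx5 are transcription factors of the forebrain, the branchial arches and the skeleton, and Dlx5 is also a factor of bone formation. Dlx5 (Entrez 13395, chr6:6877801-6882068) was the most abundant of the 3 per kilobase of exon in tumors, at 2.43 normalized cpm per kb. It ranged from 2.47 in tumor 8 over a median of 5.04 to 8.65 in tumor 9, while glands 1, 2 and 3 were at 0, 0.052 and 0. The single read in the 3 glands against 531 reads in the 10 tumors gives a ratio of 260, with an exact interval of 46.5 to 10302 that covers counting error only. Without gland 1 the ratio was 141, and without gland 2 no gland read was left. The log2 difference was 2.61 ± 0.27 (adjusted p = 5.5e-06 by limma), and the gene kept its call in all 27 alternatives.

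Dlx2 ranged from 1.93 in tumor 10 over a median of 3.31 to 12.4 in tumor 7, and no gland library held a read. With a tumor mean of 4.22 ± 3.07 (SD, n = 10), the level was at least 11.5-fold higher than the highest floor of a gland library, that of gland 3, and at least 27.2-fold without it (log2 difference 2.23 ± 0.36, adjusted p = 2.5e-04 by limma). Dlx1, its neighbour on chromosome 2, ranged from 1.06 in tumor 2 over a median of 1.91 to 5.35 in tumor 7, while the glands were at 0.128, 0.052 and 0. Its 223 reads in tumors and 4 in glands gave a ratio of 27.3, with a counting interval of 10.5 to 101, and of 59.2 without gland 1, which held 3 of the 4 (log2 difference 1.51 ± 0.27, adjusted p = 5.5e-04 by limma). No tumor and gland overlapped for either gene, and tumor 7 was the highest tumor for both. With a pseudocount of 2 the Dlx1 difference was 0.97 on the log2 scale, just short of 2-fold, and scaled to fibroblast markers it was 1.96 (adjusted p = 5.5e-06 by limma), still called, where the median of all genes was 2.13. A short antisense transcript, Dlx1as, shares 335 bases with the exons of Dlx1 on the opposite strand and has no row, and the sources used here do not say whether reads were counted by strand.

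Dlx4, a member known from the placenta, did not pass. It was at 1.84, 3.41 and 1.22 in the glands and between 0.114 in tumor 5 and 1.23 in tumor 6, with a median of 0.668. Tumor 6 lay just above the lowest gland, so that the groups overlapped by 1 tumor. The log2 difference was -0.84 ± 0.24 (adjusted p = 0.016 by limma), short of the 2-fold limit. Without gland 3 it was -1.06 (adjusted p = 0.0084 by limma), past the limit, and edgeR on the recovered reads gave -1.54 (adjusted p = 0.016), whereas without gland 2 it was -0.57 (adjusted p = 0.13 by limma) and scaled to fibroblast markers 0.38 (adjusted p = 0.29 by limma). With a correlation between tumors of the same mouse in voom the difference was -1.57 (adjusted p = 0.013 by limma), past the limit. With the tumors of a mouse averaged it was -0.80 (adjusted p = 0.027 by limma), short of it. The exons of Dlx4 share 79 bases with Dlx4os on the opposite strand.

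Msx1 and Msx2 encode repressors that keep cells of the mammary bud, tooth bud and hair follicle from differentiating early. Msx1 was above the floor in every gland, and Msx2 was above it in glands 1 and 2 and at it, with 3 reads, in gland 3. Msx1 was at 1.33, 1.08 and 1.71 in glands 1, 2 and 3 and ranged from 2.24 in tumor 2 over a median of 5.82 to 11.1 in tumor 7, a mean 4.13-fold higher in tumors (log2 difference 1.41 ± 0.32, adjusted p = 0.0037 by limma). Msx2 was at 0.942, 0.826 and 0.366 in the glands and ranged from 1.88 in tumor 8 over a median of 3.86 to 29.3 in tumor 7. The mean difference was 9.08-fold, or 5.51-fold without tumor 7, and the tumor next to tumor 7 was at 6.37 (log2 difference 1.74 ± 0.52, adjusted p = 0.018 by limma). All tumors were above all glands for both genes. The Msx2 call rested on all 3 glands, since leaving out gland 1, 2 or 3 gave adjusted p = 0.052, 0.051 and 0.060 by limma, while leaving out any tumor kept it.

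Hoxc13 (Entrez 15422, chr15:102921131-102928814), which drives keratin genes of hair and nail, was the only one of the 22 listed Hox genes that rose. No gland held a read. Tumor 1 was at 0.120 from 2 reads, under its floor, the median tumor was at 3.29, tumor 6 was at 8.97 and tumor 7 at 40.6. The mean of 7.10 was at least 19.4-fold higher than the highest floor of a gland, and 9.25-fold without tumor 7, with a mean of 3.38, or 45.9-fold without gland 3, whose floor is the highest (log2 difference 2.27 ± 0.72, adjusted p = 0.026 by limma). In 9 of 10 tumors the level was above every gland floor, whereas tumor 1 cannot be told from the glands, and the SD between tumors was larger than that of any other member. The call was not kept without gland 1, 2 or 3 (adjusted p = 0.085, 0.076 and 0.057 by limma), with a pseudocount of 2 (0.059), with the tumors of a mouse averaged (0.074) or with a correlation between tumors of the same mouse in limma's voom (0.074).

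**Figure D1:**
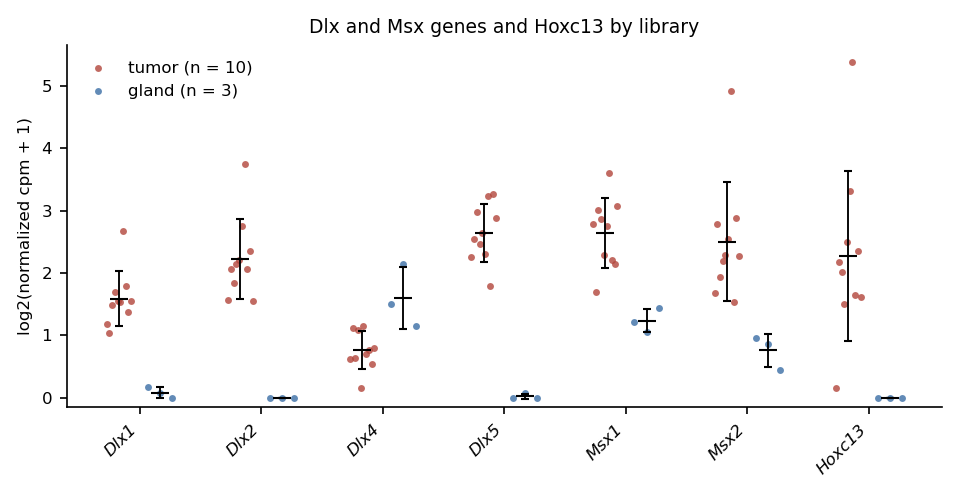
Level of the Dlx and Msx genes and of Hoxc13 in each library, as log2 of normalized cpm + 1. Red points are the 10 tumors, blue points the 3 glands, and black bars the mean and SD of the log2 values. Dlx1, Dlx2, Dlx5 and Hoxc13 sit at or near 0 in the glands, tumors and glands overlap for Dlx4, which did not pass, and tumor 7 is the top point of Dlx1, Dlx2, Msx1, Msx2 and Hoxc13. When libraries were scaled to fibroblast markers, Dlx1 was at 1.96 and the median of all genes at 2.13.

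Genes of the hair cortex and inner root sheath that are linked to Hoxc13 and Msx2 were set beside these values. Of 16 listed genes, 6 passed as higher, none as lower, and the median log2 difference was 2.16. The largest were Krt27 (4.36), Krt25 (4.35), Krt35 (3.90) and Krt71 (3.65), keratins of the inner root sheath apart from Krt35, a hair cortex keratin. Krt25, Krt27 and Krt71 are also on the squamous and hair follicle list. The 10 that did not pass varied widely between tumors, as did Krt34 at 9.84 ± 17.8 (SD, n = 10) with every gland at 0, and 15 of the 16 were higher at an unadjusted p below 0.05, none lower. EdgeR and DESeq2 on the recovered reads called all 16 higher. Their summed level was between 1.46 and 2.10 in the glands. In the tumors it was 24.4 in tumor 1, which had the lowest Hoxc13, 35.8 in tumor 4, 57.0 in tumor 8, between 129 and 202 in tumors 2, 3, 5, 6, 9 and 10, and 1319 in tumor 7, which had the highest Hoxc13, Msx2, Msx1, Dlx1 and Dlx2. The part of hair follicle markers in the rise of these members was not tested.

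**Figure D2:**
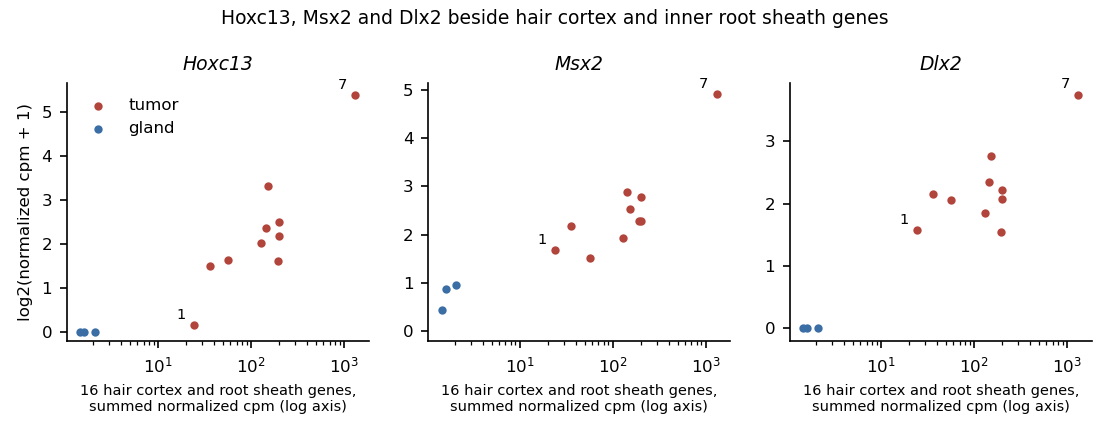
Level of Hoxc13, Msx2 and Dlx2 (log2 of normalized cpm + 1) against the summed normalized cpm of 16 genes of the hair cortex and inner root sheath (log axis), 1 point per library, tumors in red and glands in blue. Tumor 7, at a sum of 1319, is the highest tumor for all 3 genes, and tumor 1, at 24.4, is the lowest for Hoxc13. The lowest tumor is tumor 8, at 57.0, for Msx2 and tumor 10, at 193, for Dlx2.

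Signals upstream of Msx and Dlx moved in both directions. Of 18 listed genes of BMP and FGF signalling and of the mammary bud (Pthlh, Wnt10b, Tbx2 and Tbx3), 5 passed as higher and 3 as lower. Pthlh, a ligand that induces the mammary mesenchyme, was higher by 2.98 ± 0.40 on the log2 scale (adjusted p = 5.5e-05 by limma), the Wnt ligand Wnt10b by 2.83, Bmp7 by 2.65 and Bmp4 by 1.85. The mesenchymal ligand Fgf10 fell by 3.25 on the log2 scale, from 11.4 ± 0.65 in glands (SD, n = 3) to 0.369 ± 0.56 in tumors (SD, n = 10). Id1, a direct BMP target, was higher by 1.47, whereas Id2 (0.09) and Id3 (0.30) did not pass.

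The 22 Hox members were read by cluster. Hoxa genes lie on chromosome 6, and the listed ones span chr6:52201754-52240854. All 4 fell (Hoxa5, Hoxa7, Hoxa9 and Hoxa10), with log2 differences from -1.51 to -1.73. Their summed level was 12.6, 7.95 and 14.1 in glands 1, 2 and 3 and ranged from 0.378 to 1.98 in the tumors. Hoxa9, a posterior gene known from blood progenitors and leukemia, was at 2.87, 1.76 and 3.66 in the glands, and 5 tumors had no read of it. The other 5 tumors were between 0.141 and 0.315. The mean was 23.8-fold lower in tumors, a ratio that rests on 14 reads in the tumors and 131 in the glands. At or under the floor were 9 of 10 tumors (log2 difference -1.73 ± 0.19, adjusted p = 6.9e-06 by limma). Exons of Hoxa9 share 85 bases with Mir196b on the same strand, and exons of Hoxa7 share 20.4% of their bases with Hoxaas3 on the opposite strand.

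Hoxd genes, on chromosome 2 between 74684273 and 74748271, fell as well. All 5 listed members passed, with a median log2 difference of -1.89. In the glands Hoxd9 and Hoxd8 had the highest levels per kilobase of all Hox members, 5.50 and 5.24 normalized cpm per kb, and in the tumors these were 0.399 and 0.542. Hoxd8, a central member, was at 15.7, 19.5 and 7.92 in glands 1, 2 and 3 and ranged from 0.588 in tumor 8 over a median of 1.58 to 2.52 in tumor 7, a mean 9.67-fold lower (log2 difference -2.61 ± 0.31, adjusted p = 1.8e-05 by limma). Hoxd9 (Entrez 15438), its posterior neighbour, was at 14.1, 16.3 and 4.88 in the glands and ranged from 0.210 in tumor 7 over a median of 0.472 to 2.05 in tumor 9, a mean 13.8-fold lower (-2.72 ± 0.36, adjusted p = 4.5e-05 by limma). The lowest gland was above the highest tumor in both, although gland 3 was well under the other 2 glands.

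Hoxd10, a gene of the hindlimb and lower spinal cord, was at 2.53, 3.77 and 4.39 in the glands, while 3 tumors had no read and the highest, tumor 10, reached 1.19 (log2 difference -1.77 ± 0.24, adjusted p = 7.0e-05 by limma). Hoxd4 was at 7.79, 5.21 and 5.24 in the glands and ranged from 0.378 in tumor 6 over a median of 1.01 to 2.07 in tumor 10, 6.41-fold lower on average (-1.89 ± 0.25, adjusted p = 4.2e-05 by limma). Tumor 10 was the highest tumor for both genes. The sum of the skeletal muscle markers was 323 in tumor 10, 1900 in tumor 4 and between 2.12 and 11.6 in the other tumors, and its part in these values was not tested. The fifth, Hoxd3, had the smallest log2 difference of the cluster (-1.26), on a scale that understates the change of low genes. Its mean was 7.08-fold lower, a larger ratio than that of Hoxd4, although 7 of 10 tumors were at or under the floor. EdgeR on the recovered reads gave -2.82 for Hoxd3 and -2.67 for Hoxd4. Hoxd3 shares 388 exon bases with Hoxd4 and 2225 with the transcript Gm28230, so that reads of these 2 genes may not be fully separate.

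The Hoxc cluster on chromosome 15 was divided by position. Hoxc4, Hoxc5, Hoxc6 and Hoxc8 did not pass, with log2 differences between -0.31 and 0.52. Hoxc9 (-1.41) and Hoxc10 (-2.58) fell, and Hoxc13 at the posterior end rose. With a pseudocount of 2 Hoxc9 was at -0.98 and short of 2-fold, as were Hoxb6 (-0.99) and Hoxd3 (-0.83). Among the members that fell, the largest ratio of levels was that of Hoxc10, although the log2 differences of Hoxd9 (-2.72) and Hoxd8 (-2.61) were larger. Hoxc10 (Entrez 209448, chr15:102966796-102971898) is a gene of the hindlimb and lower trunk. It was at 5.99, 6.45 and 4.02 in glands 1, 2 and 3, from 140, 125 and 33 reads, and 10 of 10 tumors were at or under the floor, with 7 reads among them. The pooled level was 86.8-fold lower in tumors, with a counting interval of 41.6 to 218 (log2 difference -2.58 ± 0.17, adjusted p = 7.6e-08 by limma). This call was kept in all 27 alternatives. Hoxc10 shares 166 exon bases with Hoxc5 on the same strand, while Hoxc5 itself was at 2.39 ± 0.83 in tumors (SD, n = 10) and 1.33 ± 0.50 in glands (SD, n = 3).

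Hoxc8, a marker of the thoracic level that is also active in the mammary line, had the highest level of all Hox members per kilobase in tumors, 4.01 normalized cpm per kb. It was at 9.98, 7.85 and 7.31 in the glands. Among the tumors it ran from 0.960 in tumor 1, 2.94 in tumor 8, 3.85 in tumor 4 and 3.90 in tumor 2 to between 13.2 and 22.9 in tumors 3, 5, 6, 7, 9 and 10. The glands thus lay in a gap between 4 low and 6 high tumors, and the mean log2 difference was 0.02 ± 0.66 (adjusted p = 0.98 by limma), an error larger than that of any other Hox member except Hoxc13.

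Hoxb genes on chromosome 11 lay on both sides of the threshold. Hoxb6 (-1.42) and Hoxb7 (-1.05) fell, while Hoxb2 (0.44), Hoxb3 (0.42), Hoxb4 (-0.62) and Hoxb9 (-0.51) did not pass. With voom and a correlation between tumors of the same mouse, Hoxb9 was called lower. Hoxb3, an anterior member by its group number, was at 13.1, 10.5 and 7.19 in glands 1, 2 and 3 and ranged from 5.19 in tumor 10 over a median of 15.5 to 26.0 in tumor 8. The groups overlapped, and the log2 difference was 0.42 ± 0.36 (adjusted p = 0.41 by limma). Its neighbour Hoxb2 ranged from 3.26 to 15.7 in the tumors and from 2.93 to 8.52 in the glands. Tumor 8 was the highest and tumor 10 the lowest tumor for Hoxb2, Hoxb3 and Hoxb4 alike. The opposite-strand transcript Hoxb3os shares 52.9% of the exon bases of Hoxb3 and 27.3% of those of Hoxb2 and has no row, so without the strand setting part of these reads may be its own. The Hoxb7 call was close to the 2-fold limit, and without tumor 2 or gland 2 the difference was -0.995 and -0.977, just short of it. It was also short of it with tumors of a mouse averaged (-0.97), without the mouse of tumors 8, 9 and 10 (-0.98) and with a pseudocount of 2 (-0.72).

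**Figure D3:**
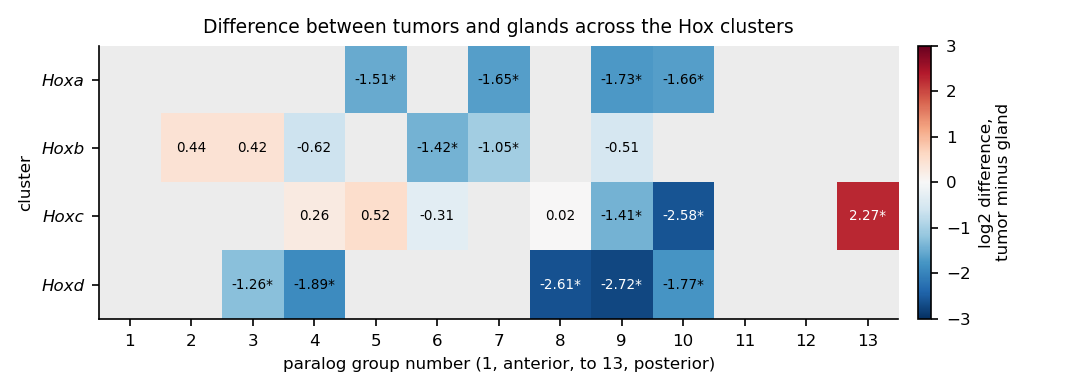
Difference between tumors and glands (log2 of normalized cpm + 1, tumor minus gland) of the 22 listed Hox genes by cluster and paralog group number, with an asterisk where FDR was below 0.05 and the change above 2-fold. Grey fields have no row. Every listed Hoxa and Hoxd gene is lower in tumors, Hoxb2, Hoxb3 and Hoxc4 to Hoxc8 lie between -0.31 and 0.52, and Hoxc13 is higher. When libraries were scaled to fibroblast markers, Hoxb7 turned to 0.21 (adjusted p = 0.56 by limma), where the median of all genes was 2.13.

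**Figure D4:**
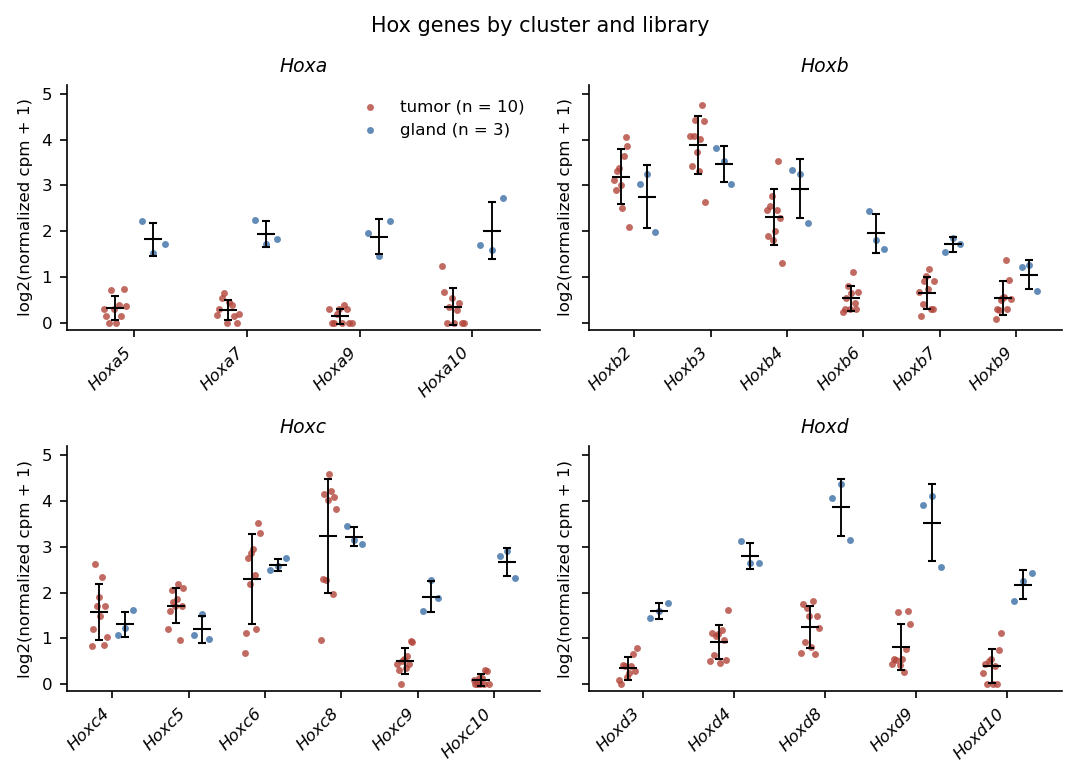
Level of the Hox genes other than Hoxc13 in each library, as log2 of normalized cpm + 1, in 1 panel per cluster. Red points are the 10 tumors, blue points the 3 glands, and black bars the mean and SD of the log2 values. The ranges of tumors and glands do not overlap for the Hoxa and Hoxd genes, Hoxb6, Hoxb7, Hoxc9 and Hoxc10, and they overlap for Hoxb2, Hoxb3, Hoxb4, Hoxb9, Hoxc4, Hoxc5, Hoxc6 and Hoxc8. For Hoxc6 and Hoxc8 the tumors lie above and below the glands, and none lies within the gland range.

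By position, 1 of 3 anterior members fell, 6 of 11 central members fell, and of 8 posterior members 6 fell and 1 rose. The median log2 difference was 0.42 for anterior, -1.05 for central and -1.69 for posterior genes. Across the 22 genes, the difference had a Spearman rho of -0.38 and a Pearson r of -0.15 with the paralog group number, where the points share libraries and clusters. Position and cluster were not separate, since the anterior Hoxd3 fell while Hoxb2 and Hoxb3 did not, and the listed central members of Hoxa and Hoxd fell while those of Hoxc did not pass.

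The makeup of the Hox signal is described by shares, without a test. Per kilobase of exon, Hoxd genes made up 37.8% ± 5.1 of the summed Hox level in the glands (SD, n = 3) and 7.87% ± 4.5 in the tumors (SD, n = 10), and Hoxa genes 10.3% ± 4.3 and 1.94% ± 1.6. Hoxb genes took 25.7% ± 3.4 in the glands and 43.7% ± 19.7 in the tumors, and Hoxc genes 26.1% ± 3.9 and 46.5% ± 21.0. The summed levels, in normalized cpm and not per kilobase, were 29.9 ± 9.89 in glands and 29.7 ± 12.1 in tumors for Hoxb, and 24.7 ± 1.77 and 28.5 ± 19.8 for Hoxc. Those of Hoxa were 11.6 ± 3.22 and 0.941 ± 0.528, and those of Hoxd 37.8 ± 11.5 and 3.94 ± 1.79, so that the larger Hoxb and Hoxc shares went with lower Hoxa and Hoxd levels. The Hoxb share ranged from 21.3% to 76.8% and the Hoxc share from 14.1% to 72.0% between tumors, while the Hoxd share was at most 15.3% in any tumor and at least 32.7% in every gland. Anterior genes accounted for 11.7% ± 1.3 in glands and 31.2% ± 14.7 in tumors, and posterior genes for 33.9% ± 2.7 and 16.2% ± 10.6.

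Fibroblasts are a known source of Hox transcripts, and the fibroblast marker sum was lower in all tumors than in all glands. When each library was scaled to that sum, the median of all genes moved to 2.13 on the log2 scale. On the scaled values 12 of the 13 Hox genes that fell lost their call, with differences between -0.93 (Hoxd9) and 0.21 (Hoxb7), and only Hoxc10 (-1.18) was called lower. The 6 members that rose were still called higher, with Dlx5 at 3.13, Msx2 at 2.72, Dlx2 at 2.69, Msx1 at 2.68, Hoxc13 at 2.66 and Dlx1 at 1.96. With the other members that passed on this scale, 13 were called higher. Scaling to the epithelial markers moved the median of all genes to -0.62. On the values scaled to epithelial markers the 13 fallen members were between -1.51 and -3.23. Msx1 was at 0.91 (adjusted p = 0.023 by limma) and no longer called, which left 5 members higher, and 15 were lower. The fibroblast markers did not move evenly, with Col3a1 at -3.65 and Pdgfra at 0.41 before scaling. Nor did the epithelial markers, with the basal keratins Krt5 at 2.82 and Krt14 at 1.73 and Krt8 at 0.08, while 9 of 12 did not pass. The part of the marker changes in the Hox differences was not tested.

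Tumors of the same mouse were compared by gland number, a comparison chosen after these values had been seen. In 3 mice, a tumor of gland 1 (tumors 2, 5 and 8) could be set beside tumors of gland 2 or 3 (tumors 3, 6, 9 and 10). Hoxc8 was at 3.90 in tumor 2 and 16.9 in tumor 3, at 15.3 in tumor 5 and 22.9 in tumor 6, and at 2.94 in tumor 8 against 15.9 and 13.2 in tumors 9 and 10. It was lower in the gland 1 tumor in 3 of 3 mice, by 1.47 on the log2 scale on average. Hoxc6, the next gene of the cluster, was also lower in 3 of 3 mice, by 1.31 on average, although the difference in the mouse of tumors 5 and 6 was only -0.08. Of all genes, 6.68% were lower in 3 of 3 mice, and 14 genes (0.092%) were so with an average above 1. Hoxc5 (-0.52), Hoxb6 (-0.21) and Msx1 (-0.75) were lower in 3 of 3 mice by smaller amounts, and Hoxa10 was higher in 3 of 3 (0.55, at 5 or fewer reads in each of these tumors). Hoxb3 had no common direction. With 3 mice, the smallest two-sided p of an exact permutation test is 0.25, above the threshold, and no test was run because the comparison was chosen from these values. Of the tumors without a gland number, tumors 1 and 4 were low in Hoxc8 and tumor 7 was high. Because the wild-type glands carry no number, body position and the presence of a tumor cannot be told apart for the Hox differences.

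**Figure D5:**
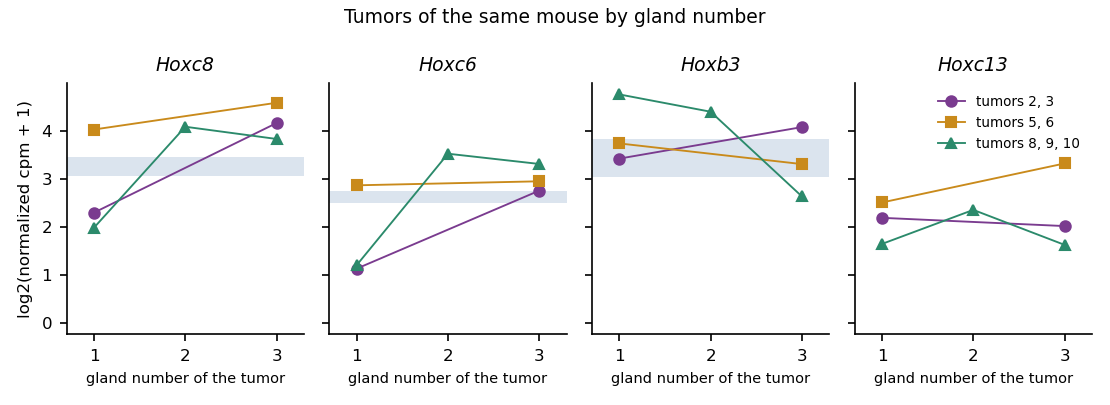
Level of Hoxc8, Hoxc6, Hoxb3 and Hoxc13 (log2 of normalized cpm + 1) in 7 tumors by the gland number in their labels. Lines join tumors of the same mouse, and the blue band is the range of the 3 wild-type glands, which is at 0 for Hoxc13. Hoxc8 and Hoxc6 are lower at gland 1 in each of the 3 mice, while Hoxb3 and Hoxc13 show no common direction.

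Cofactors and chromatin regulators of Hox genes were read from 2 lists. Of 10 listed TALE homeodomain genes, which include the Pbx and Meis partners that bind DNA with Hox proteins and the Tgif repressors, 2 passed as higher and none as lower by limma, edgeR and DESeq2, with 3 higher and 1 lower at an unadjusted p below 0.05. Tgif1, a repressor of TGF-beta and retinoid responses, was at 76.7 ± 6.5 in tumors (SD, n = 10) and 28.0 ± 4.1 in glands (SD, n = 3), higher by 1.43 ± 0.13 on the log2 scale (adjusted p = 1.9e-06 by limma), and Meis3 was higher by 1.08. Of 19 listed Polycomb and trithorax regulators, which hold Hox clusters silent or active, 0 passed in either direction by limma, while 1 was higher and 2 were lower at an unadjusted p below 0.05. EdgeR and DESeq2 on the recovered reads each called 1 lower. Ezh2, the Polycomb methyltransferase, was at a log2 difference of 0.58 (adjusted p = 0.047 by limma), under the 2-fold limit. The lists hold mRNA levels only.

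Other homeobox genes divided between the directions. Of 31 listed, 5 passed as higher and 7 as lower, with a median log2 difference of -0.19. Satb1, an organizer of lymphocyte chromatin, fell by 3.36 on the log2 scale, and the mesodermal Meox2 fell by 2.80. Zeb1, an EMT factor, fell by 1.89. Dlx3, the epidermal member of the Dlx family, which the rule does not include, was at 24.0 ± 21.5 in tumors (SD, n = 10) and 6.05 ± 3.19 in glands (SD, n = 3) and was higher by 1.68 ± 0.49 (adjusted p = 0.017 by limma). The lymphocyte marker sum was 492 in gland 1, 22.4 in gland 2 and 400 in gland 3 and between 11.1 and 111 in the tumors, and its part in the Satb1 value was not tested. Of the antisense and noncoding neighbours of the clusters only Dlx6os1, a noncoding RNA beside Dlx5 and Dlx6, had a row. It was absent from all gland libraries and ranged from 0.473 in tumor 2 to 20.3 in tumor 9 (log2 difference 2.20 ± 0.54, adjusted p = 0.0061 by limma).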

How the data were processed

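RNA of 10 mammary tumors (6 mice) and 3 wild-type mammary glands (3 mice) was compared by limma. The authors mapped paired-end reads to mm10 with Rsubread, obtained gene counts from featureCounts and used edgeR for normalization. The strand setting is not given in the sources used here. Each deposited signal value is a read count over a scaled library size, and 100% of the values up to 1000 reads were whole multiples of the value of 1 read within 0.1 read, so that whole reads could be recovered. Depth was between 6176269 and 16835397 reads in tumors and between 11672487 and 23889042 in glands. The reads of all 48 pairs of libraries of a group differed beyond sampling noise (smallest chi-square per gene 20.4), and tumors of the same mouse were taken as separate samples.

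Condition was the single term in a fit of the 13 libraries with a variance trend, on log2(normalized cpm + 1) over all 15213 listed genes, with Benjamini-Hochberg adjustment. Genes past an FDR of 0.05 and a change of more than 2-fold were called. Fold changes on this scale understate the change of low genes. Unless stated otherwise, levels are mean ± SD, differences are log2 ± SE, and values marked as reads were recovered from the table. Levels per kilobase used GENCODE M21 exon lengths. Folds against a group without reads are lower bounds against the highest floor of 3 reads in a gland library, and intervals are exact at 95%.

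The members, lists and named genes were chosen with earlier results of these data known. Named were all Dlx and Msx members, and of the Hox members those called whose tumor and gland values do not overlap, up to the 6 largest rises and falls, the 3 highest per kilobase in glands and in tumors, and any with a group at 0 reads. Bmp4, Id1, Id2, Id3, Dlx3, Ezh2, Krt34, Hoxa10 and the uncalled Hoxb and Hoxc genes were named after their values were seen. A few genes of the lists are not reported here. Alternatives were the limit of the study on low values (5), pseudocounts of 0.5 and 2, edgeR and DESeq2 on recovered reads, TMM and DESeq2 size factors, scaling to epithelial or fibroblast markers, voom with a mouse correlation (0.100), averaged tumors of a mouse, a mouse left out, a replicate block and each library left out. Fits with tumors of gland 1 alone, or of glands 2 and 3 alone, were added after the data had been seen. They are included where alternatives are counted. R 4.3.3, limma 3.58.1, edgeR 4.0.16 and DESeq2 1.42.0 were used. Coordinates, promoters and gene names are those of RefSeq GRCm38.p6, matched by Entrez ID for 28 of 28 members. Of these, 11 share exon bases with another gene, 7 of them on the opposite strand.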

Additional observations from a re-analysis of the deposited data

Results flagged for a closer look

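Among the members with 10 tumor values, 5 had a single tumor far from the rest by Dixon's criterion. Chance alone meets it in about 1 in 20 groups of independent, normally distributed values. Here it was applied to normalized cpm without a log, and the members share the same tumors, so that this rate need not hold. Tumor 7 stood apart in 4 of them. It was at 40.6 normalized cpm for Hoxc13 (next tumor 8.97), 29.3 for Msx2 (next 6.37), 12.4 for Dlx2 (next 5.76) and 5.35 for Dlx1 (next 2.47). The same tumor had the highest sum of the 16 hair cortex and inner root sheath genes. Tumor 10 was at 2.07 for Hoxd4 (next 1.26), still below all glands, and its skeletal muscle marker sum was 323, which only tumor 4 exceeded (1900).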

How the results depend on the processing

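Over the 15 named genes, 361 of 407 comparisons with an alternative kept direction and side of the threshold, 21 lost the call, 8 gained it and 17 changed sign, 15 of the latter for Hoxc8. Of 28 members, 6 were higher and 13 lower. Under the limit of the study on low values 3 members remained, 0 were higher and 0 lower, and their median log2 difference was 0.42 in place of -0.73. Scaled to fibroblast markers, 13 were higher and 1 lower, with a median of 0.36, Dlx4 at 0.38. With a pseudocount of 2, 4 were higher and 9 lower. The median was -1.37 with edgeR and -1.37 with DESeq2 on the recovered reads, -1.58 with voom and -1.22 scaled to epithelial markers, where Hoxb3 was at -0.20 and Hoxc8 at -0.60. Voom called 5 members higher and 15 lower. Without 1 library each, 4 to 6 members were higher and 12 to 14 lower, with a median of -1.02 to -0.51. Scaling moved all genes, to a median of 2.13 on the fibroblast scale and -0.62 on the epithelial scale. The member median was -0.55 with a pseudocount of 2 and -0.91 with 0.5, since a larger pseudocount shrinks the differences of low genes. The cause of the other shifts was not tested, apart from the smaller number of genes under the limit.

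Hoxc8 was also at -0.016 with a pseudocount of 0.5, -0.31 with voom, -0.077 with tumors of a mouse averaged, -0.0014 without the mouse of tumors 8, 9 and 10, and -0.13 to 0.27 without 1 library each. Tumors of gland 1 alone, or of glands 2 and 3 alone, were compared with the glands after the data had been seen. With gland 1, Hoxc8 was at -0.45 and Msx1 at 0.83, under the 2-fold limit, and 5 members were higher and 13 lower. With glands 2 and 3, 6 were higher and 13 lower, and Hoxc8 was at 0.94, just short of 2-fold. These fits are description only, since the split was chosen from these values and tumors 9 and 10 share a mouse. No p-value of theirs is given.

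Replicate numbers 1 to 3 occur in both groups but only name samples, since the correlations of their deviations were -0.41, 0.04 and -0.59. A replicate block with 2 residual degrees of freedom gave 2 higher (Dlx2 and Dlx5) and 10 lower, a median of -0.96 and Hoxc8 at -0.75. At 6176269 to 16835397 reads per tumor, members at 3 reads or fewer cannot be told from 0.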
